A study of Bos taurus with 17 samples.

Results

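Transcription factors of the RUNX, C/EBP, GATA and FOX families were examined in bovine cumulus cells, the somatic cells that surround the oocyte. The genes asked for were RUNX1, RUNX2, CEBPA, CEBPB, CEBPD, GATA4, GATA6, FOXL2, FOXO1 and FOXO3. A probe was taken when the array names it with the gene's symbol, or when its gene name is a LOC number and its description names the gene. This rule gave 10 of the 21475 probes of the array, for 8 of the 10 genes, and none for GATA6 or FOXO1. A further 6 probes that bear the accession of an expressed sequence tag (EST), a short read from a cDNA clone, have a description that names RUNX1, RUNX2, GATA6, FOXL2 or FOXO1. They lie outside the rule, are called EST probes here and are reported beside the others, which makes 16 probes. Of these, 14 were valid, which means detected in 80% or more of the samples of every stage, and 8 of the 14, for 6 genes, came from the rule.

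The samples were 17 preparations of cumulus cells, each hybridised to 1 Agilent 1-colour array. NC1 cells came from 6 prepubertal calves aged 3 to 6 months and C1 cells from 6 adult cows of different ages, in both cases as compact complexes aspirated from follicles of 3 to 6 mm after slaughter, with no hormone treatment described. C2 cells came from 5 non-lactating Holstein cows aged 3 to 5 years that were given a progestagen implant, FSH-based superovulation and prostaglandin. Their complexes were aspirated from living animals 60 h after prostaglandin, from follicles above 8 mm, and only expanded complexes with a mature oocyte were kept. Age cannot be told apart from stage between NC1 and C1, nor between NC1 and C2. Hormone treatment, follicle size, mode of collection and oocyte stage (metaphase II at C2, prophase I at NC1 and C1) cannot be told apart from cumulus expansion at C2. Breed and lactation are given for C2 alone.

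These factors act in the follicle at different times. FOXL2, GATA4 and GATA6 maintain the granulosa lineage and its steroid-making genes in the growing follicle, and FOXO factors restrain growth until insulin-like and gonadotropin signals remove them from the nucleus. The ovulatory surge of LH is known to induce RUNX1, RUNX2, CEBPA and CEBPB in granulosa cells, and the loss of C/EBP factors there blocks ovulation and luteinisation in mice.

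The probes are 60-base oligonucleotides, and several genes have more than 1. The sequences below belong to 4 genes whose probes carry the results, RUNX2 and FOXL2 since both of their probes differed between stages in 1 direction, and CEBPA and CEBPD since theirs did not behave alike. They are given 5′ to 3′ as the deposited table lists them, whole for 3 probes and as the first 30 bases for the others, with the longest unbroken run of G and C in the printed stretch in capitals.
CEBPA A_73_109326: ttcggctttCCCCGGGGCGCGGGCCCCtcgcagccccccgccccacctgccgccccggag
CEBPA A_73_117799: gaGGGCGGCtttggttctcttctttgggga
CEBPD A_73_118824: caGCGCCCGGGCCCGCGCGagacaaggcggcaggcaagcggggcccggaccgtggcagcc
CEBPD A_73_114333: gcagtaatagacgagaggacaaaggttGGC
FOXL2 A_73_100014: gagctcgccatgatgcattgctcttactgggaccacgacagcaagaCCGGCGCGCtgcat
FOXL2 A_73_108473, EST probe: cctggttgttttgtagtgtgtcgtCCGGag
RUNX2 A_73_120148: GCCCaagagagagacagtcctaaccaggtt
RUNX2 A_73_119266, EST probe: tccaaCCCactccttctcctgttatgcaaa
The first CEBPA probe and the first CEBPD probe shown are 83.3% and 81.7% G and C, higher than 99.95% and 99.93% of the 15256 probes with a listed sequence. The other probe of each gene has 45%, near the median of 43.3% for those probes. No pair of sequenced probes of 1 gene shares more than 7 bases in a row on either strand. Such pairs read different stretches of the sequences they were designed on, which were not placed on a genome here.

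Values below are log2 scaled signals, the log2 of the background-corrected signal minus the median of the array, and a level is compared only within a probe. Differences were tested in 1 limma fit over the 3 stages with Benjamini-Hochberg adjustment over 13865 valid probes, and "called" means an adjusted p under 0.01. SD is the spread between arrays of a stage and SE that of the fitted difference. Depth is not counted on arrays, and the number of arrays limits the precision. Between 66.0% and 82.7% of probes were present on an array. In RNA of mixed cells, fewer cells of a type and less RNA per cell cannot be told apart.

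The markers of the cells are given first, since the results that follow come from mixed cells. The expansion genes HAS2, PTX3, TNFAIP6 and PTGS2 averaged between 5.59 and 6.75 on the C2 arrays and between -0.27 and 2.73 on the 12 compact ones. The 9 valid markers of cumulus and granulosa cells, of 12, averaged between 7.35 and 8.31 on the compact arrays and between 4.00 and 6.18 at C2, where 6 of the 9 fell against C1 (12.8% of all valid probes did). Of the markers of these cells that were not valid, KITLG was well above background on 2 NC1, 3 C1 and 5 C2 arrays. AMHR2 was so on 6, 6 and 3. The 11 valid leukocyte markers, of 19, averaged between -0.78 and 1.28 on compact arrays, and 2.12, 1.91, 2.05 and 2.56 on C2 arrays 1, 3, 4 and 5, but -0.72 on C2 array 2. Against C1, 5 of these 11 rose at C2 (CD14, CD53, LAPTM5, TYROBP and S100A8) and none fell, where 15.3% of all valid probes rose. Among leukocyte markers that were not valid, S100A9 was well above background on 0 NC1, 0 C1 and 5 C2 arrays, CD3E on 0, 0 and 4, CD3D on 0, 1 and 1, CD74 on 0, 4 and 4, MS4A1 on 1, 4 and 3, and FCER1G on 4, 6 and 4. The 7 valid theca and stroma markers, of 9, averaged between 2.42 and 3.86 on compact arrays and between 3.52 and 4.70 at C2. Against C1, 2 of these 7 rose (LUM and COL1A1) and none fell. Their median difference from C1 was -0.07. CYP17A1, INSL3, DCN and ACTA2 had lower means at C2 than at C1, none of them called. COL3A1 had a higher mean (3.52, limma adjusted p = 0.0306), also not called. Another valid DCN probe differed from the one used in direction or call. The 4 valid endothelial markers, of 9, lay between -2.66 and -2.09 at C2 and between -2.29 and -0.73 on compact arrays. The 3 valid oocyte markers, of 10, averaged 2.77 to 3.99 at NC1, -0.46 to 2.68 at C1 and -0.87 to 0.58 at C2. None of the 3 red cell genes was valid, and HBB was well above background on 3 NC1, 6 C1 and 5 C2 arrays. The part of these markers in the results was not tested.

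The C2 arrays were not alike. Over the valid probes, the SD of the difference between C2 arrays was 0.44 for 1 and 5 and 0.51 for 3 and 4, against 1.05 to 1.27 for all other pairs, and lay between 0.43 and 0.76 for pairs of arrays within NC1 or C1. The labels give the 5 as separate samples. The arrays were scanned on 2 days, the first holding C2 arrays 1, 2 and 5 and the second C2 arrays 3 and 4. The valid probes of the factors had a median SD of 0.40 at NC1, 0.41 at C1 and 0.78 at C2, while all valid probes had 0.34, 0.33 and 0.50.

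**Figure D1:**
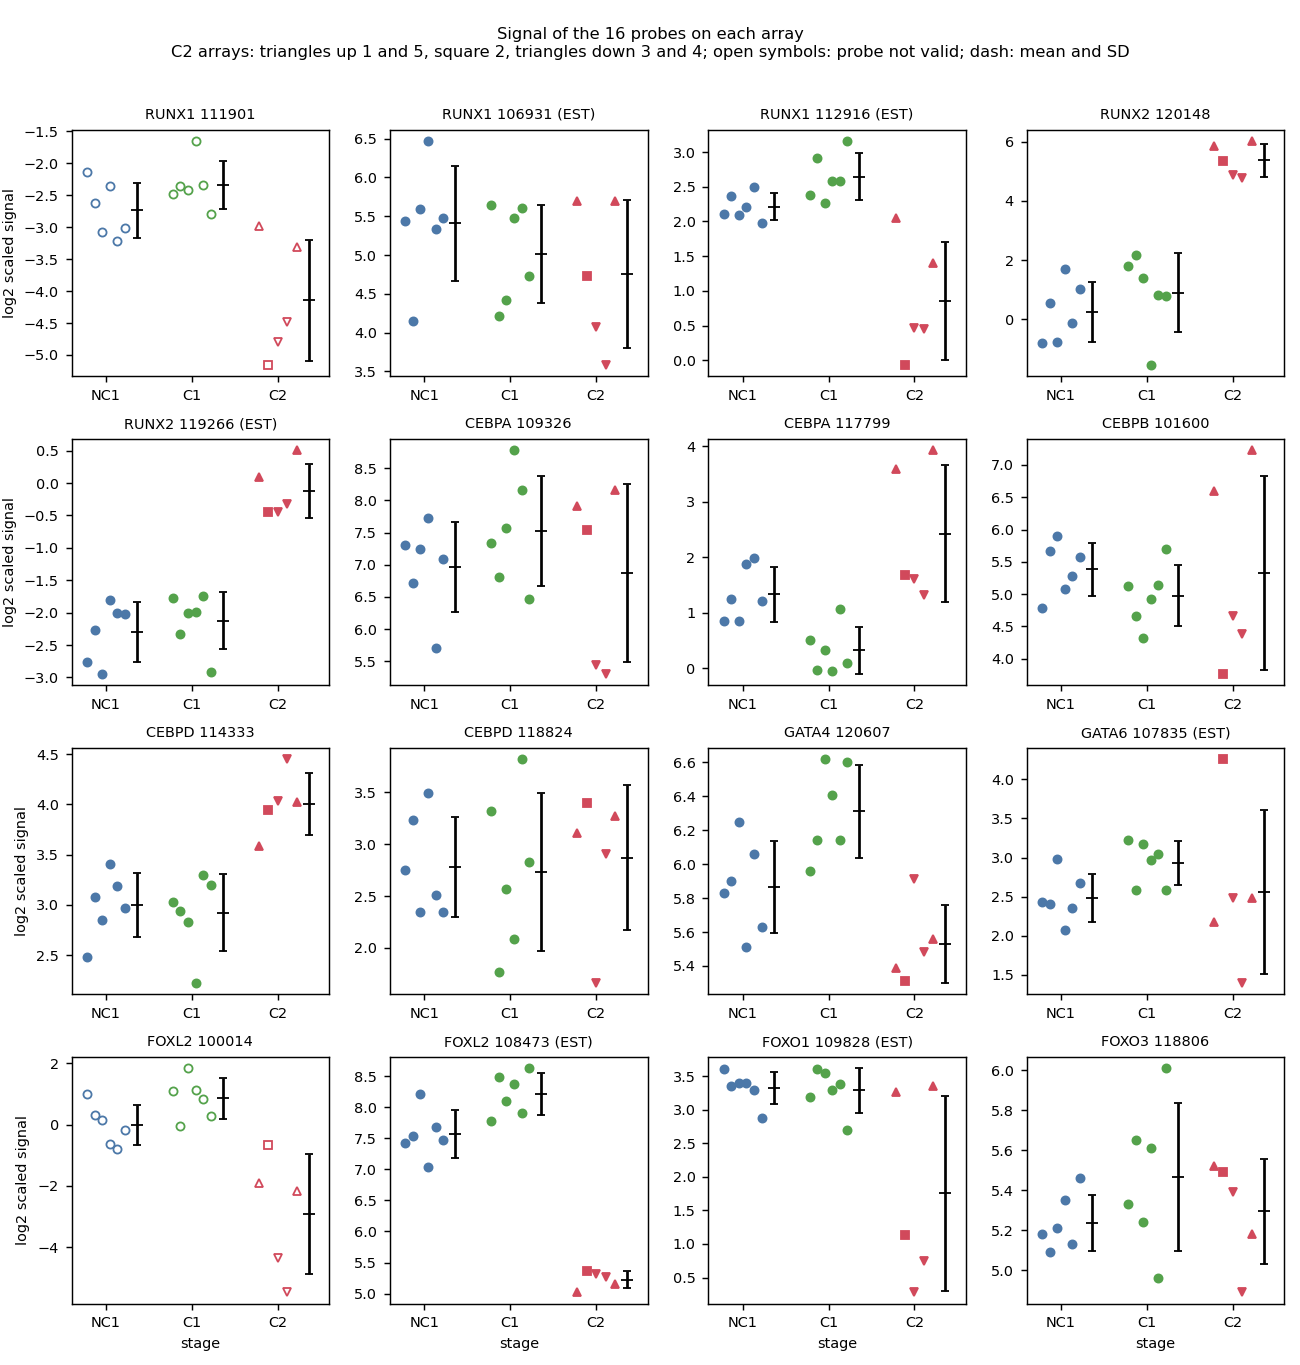
Log2 scaled signal (y axis, a scale of its own in each panel) of the 16 probes on each array by stage (x axis), with the mean and SD beside each stage. RUNX2 is high on all 5 C2 arrays by both probes, the EST probe of FOXL2 is low on all 5, and for CEBPB, FOXO1 and the first CEBPA probe the C2 arrays split, with arrays 1 and 5 high and 3 and 4 low.

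By the moderated F test, a stage effect was called for 7 of the 14 valid probes, and for 28.6% of the whole valid set. Between C2 and C1, 4 were higher at C2 (15.3% of all valid probes were) and 3 lower (12.8%). Between C2 and NC1, 3 were higher (15.5%) and 3 lower (12.6%). The median difference of the 14 was -0.22 for C2 minus C1 and 0.00 for C2 minus NC1, beside 0.02 and 0.11 over all valid probes. Among the 8 probes of the rule alone, 3 rose and 1 fell against C1, and 2 rose and 0 fell against NC1. On all 5 C2 arrays, 3 probes lay above all 12 compact arrays (7.61% of valid probes did), the 2 of RUNX2 and 1 of CEBPD. The EST probe of FOXL2 lay below all 12 (7.97%). Probes of 1 gene are not independent, so these counts are of probes and not of genes. By the brightest valid probe, 4 of the 10 genes were called against C1, namely RUNX2 and CEBPD as higher and GATA4 and FOXL2 as lower at C2.

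**Figure D2:**
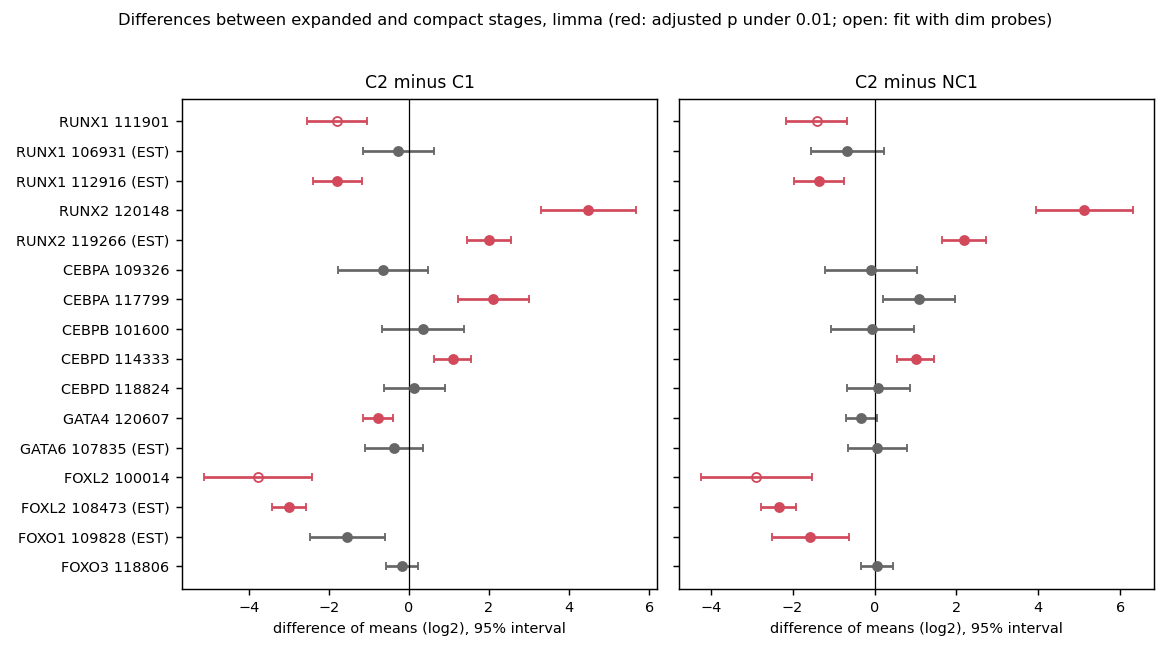
Difference of stage means on the log2 scale (x axis) with its 95% interval for each probe (y axis), C2 minus C1 at left and C2 minus NC1 at right. Among valid probes the differences from C1 run from -2.99 for the EST probe of FOXL2 to 4.47 for a RUNX2 probe, the FOXL2 probe plotted at -3.77 being at background on 2 C2 arrays, and probes of 1 gene do not always give the same call, as for RUNX1, CEBPA and CEBPD.

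RUNX2, a runt-domain factor best known for bone formation and also induced in the periovulatory follicle, had the largest rise. Its probe A_73_120148 read 5.86, 5.34, 4.87, 4.77 and 6.03 on C2 arrays 1 to 5. At C1 the lowest, median and highest values were -1.56, 1.11 and 2.17, and at NC1 -0.82, 0.20 and 1.71. No compact array reached the C2 values, and the gap was wide. C2 exceeded C1 by 4.47 (SE 0.57, limma adjusted p = 5.43e-06), a 22.2-fold difference, and NC1 by 5.12 (SE 0.57, adjusted p = 1.26e-06), or 34.8-fold. The exact permutation test of the stage means, 2-sided, gave p = 0.00433 against either compact stage, the smallest it can give for 5 arrays against 6. The EST probe of RUNX2 was dim on compact arrays and behaved alike. It read 0.10, -0.44, -0.44, -0.33 and 0.51 on the C2 arrays. Its range was -2.91 to -1.74 at C1 and -2.95 to -1.81 at NC1, so the C2 arrays again lay above all compact ones. Its difference was smaller, 2.00 from C1 (SE 0.26, adjusted p = 7.32e-06) and 2.18 from NC1 (SE 0.26, adjusted p = 2.98e-06). With the normexp background correction, another estimate of the background, these were 1.12 and 0.90, both called. Over the 17 arrays the 2 probes had r = 0.91.

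The RUNX2 rise was present on both scan days. On the first day, C2 minus C1 by the probe of the rule was 4.61 (3 arrays against 3), and on the second 4.16 (2 against 3). The leukocyte markers averaged -0.72 on C2 array 2, on which RUNX2 read 5.34, and their part in the difference was not tested. The genes whose profile over the 17 arrays was most like that of the brighter RUNX2 probe, out of 8668 named genes, were PTX3 (r = 0.95), which builds the expanded cumulus matrix, TNFAIP6 (r = 0.94), which transfers heavy chains to hyaluronan in that matrix, and HSD11B1 (r = 0.94), which activates glucocorticoids. After each stage's mean was subtracted, r with these genes was 0.78, 0.58 and 0.52. The arrays share the stage difference, so such values describe a shared profile only.

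RUNX1, the runt-domain factor of blood cell development, was read by 3 probes that gave unlike values. The EST probe A_73_112916 read 2.05, -0.07, 0.46, 0.45 and 1.40 on C2 arrays 1 to 5. C1 arrays had a lowest, median and highest value of 2.26, 2.59 and 3.16, and NC1 arrays of 1.98, 2.16 and 2.50. The C2 arrays lay below all C1 arrays, and 4 of 5 lay below all NC1 arrays. C2 was lower than C1 (-1.79, SE 0.30, adjusted p = 9.5e-05) and than NC1 (-1.35, SE 0.30, adjusted p = 0.00132). On the first scan day alone neither difference was called (-1.58 and -1.20, limma adjusted p = 0.041 and 0.0994). The second EST probe, A_73_106931, overlapped at all stages, with 5.70, 4.73, 4.07, 3.58 and 5.69 at C2 and with ranges of 4.22 to 5.64 at C1 and 4.15 to 6.47 at NC1. Its difference from C1 was -0.26 (95% interval -1.16 to 0.63, adjusted p = 0.65), and its correlation with the first EST probe was 0.34.

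The RUNX1 probe of the rule, A_73_111901, was dim. It was well above background on 3 NC1, 6 C1 and 2 C2 arrays, so it was not valid, and its values at C2 of -2.98, -5.16, -4.79, -4.48 and -3.31 are mostly at background. In a fit with no filter over 21475 probes, C2 was lower than C1 by -1.80 (SE 0.35, adjusted p = 0.000676), where 9.97% of all probes were called lower. With normexp that difference was -0.22 (adjusted p = 0.527) and not called, so the size of the change rests on how the background is treated. RUNX1 thus fell by 1 valid probe of 2, and no probe of it rose.

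CEBPA, the basic leucine zipper factor of fat and myeloid cell differentiation, was read by the 2 probes of unlike base composition shown above. The one with 45% G and C, A_73_117799, read 3.58, 1.68, 1.61, 1.31 and 3.93 at C2. At C1 the lowest, median and highest values were -0.05, 0.20 and 1.07, and at NC1 0.84, 1.22 and 1.98. All C2 arrays were above all C1 arrays, but only arrays 1 and 5 were above all NC1 arrays. C2 exceeded C1 by 2.11 (SE 0.42, adjusted p = 0.000613) and NC1 by 1.09 (SE 0.42, adjusted p = 0.0463, not called, though 1.61 and called with array weights). On the first scan day the difference from NC1 was 1.71 and on the second 0.15. That from C1 was not called on the first day alone (2.51, limma adjusted p = 0.0109).

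The GC-rich CEBPA probe, A_73_109326, read 7.91, 7.54, 5.45, 5.30 and 8.16 at C2, 6.47 to 8.78 at C1 and 5.70 to 7.72 at NC1. Arrays 3 and 4 were below all compact arrays and the others were within the compact range, and the difference from C1 was -0.65 (SE 0.54, 95% interval -1.78 to 0.48, adjusted p = 0.358). On the first scan day C2 minus C1 was 0.55 and on the second -2.35. The correlation between the 2 CEBPA probes was 0.09. The profile of the GC-rich probe was followed closely by probes of PMEPA1, an inhibitor of TGF-beta signalling, and RAPH1, which regulates actin, each with r = 0.99, also after the stage means were subtracted.

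CEBPB, which with CEBPA mediates the response to LH, had 1 probe, A_73_101600. It read 6.59, 3.76, 4.66, 4.38 and 7.23 at C2, with a lowest, median and highest value of 4.32, 5.02 and 5.70 at C1 and of 4.79, 5.43 and 5.90 at NC1. C2 arrays 1 and 5 were above all compact arrays and array 2 was below all of them. The mean difference from C1 was 0.35 (SE 0.48, 95% interval -0.67 to 1.36, adjusted p = 0.596) and that from NC1 -0.06 (adjusted p = 0.939). These means combine C2 arrays from both sides of the compact range. Without C2 array 5 the difference from C1 was -0.13 and without array 2 it was 0.74.

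CEBPD, a relative of the acute-phase response, again gave 2 readings. Its probe A_73_114333, with 45% G and C, read 3.59, 3.94, 4.03, 4.45 and 4.02 at C2. The C1 arrays lay at 2.22, 2.98 and 3.30 (lowest, median, highest) and the NC1 arrays at 2.48, 3.03 and 3.41. The C2 and compact arrays did not overlap, with a small gap. C2 exceeded C1 by 1.09 (SE 0.21, adjusted p = 0.000541), a 2.13-fold difference, and NC1 by 1.01 (SE 0.21, adjusted p = 0.00108). On the first scan day alone the difference from C1 was 0.68 and not called. That from NC1 was called on neither day alone (0.93 and 1.16, limma adjusted p = 0.0338 and 0.0102). The GC-rich probe A_73_118824 read 3.11, 3.40, 1.66, 2.91 and 3.27 at C2, with 1.77 to 3.82 at C1 and 2.35 to 3.49 at NC1. Stages overlapped on it, and the difference from C1 was 0.14 (95% interval -0.64 to 0.91, adjusted p = 0.789). The 95% interval of the other probe was 0.64 to 1.54, so the 2 intervals overlapped, and the difference between the probes was not tested.

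The pattern of the GC-rich probes was looked at over the whole array after these values were seen. Of the 16 valid probes with at least 80% G and C, 0 were called between C2 and C1 by limma, and 2 had an unadjusted p under 0.05. Between 40% and under 60%, 27.8% of 8339 valid probes were called. The median SD over the C2 arrays was 1.18 for the 16 and 0.49 for the 8339, and the mean SD of the compact stages had a median of 0.66 and 0.32. The GC-rich probes of CEBPA and CEBPD had an SD at C2 of 1.38 and 0.70. The part of base composition in the disagreement between the 2 probes of either gene was not tested.

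**Figure D3:**
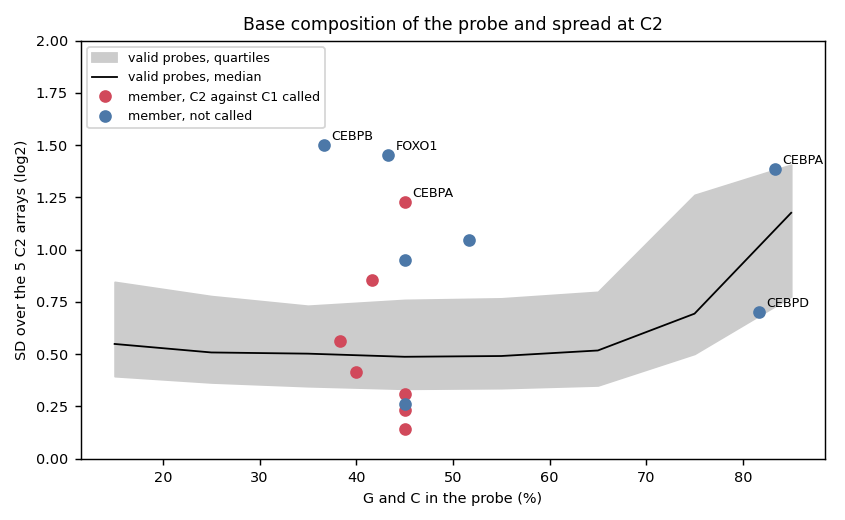
Share of G and C in the probe (x axis, percent) against the SD over the 5 C2 arrays (y axis, log2), for the 14 valid probes of the factors as points and for all valid probes as a median line with quartiles in bins of 10 percentage points. The line is near 0.49 from 40% to under 60% and reaches 1.18 in the bin of 80% and above, which holds 1 CEBPA and 1 CEBPD probe, and neither was called.

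GATA4, a zinc finger factor that activates steroid and inhibin genes of granulosa cells, was high at all stages. Its probe A_73_120607 read 5.39, 5.31, 5.91, 5.48 and 5.56 at C2. The lowest, median and highest values were 5.96, 6.27 and 6.62 at C1 and 5.51, 5.86 and 6.25 at NC1. The C2 arrays lay below all C1 arrays but overlapped with NC1. C2 was lower than C1 by -0.78 (SE 0.18, adjusted p = 0.00218), or 1.71-fold lower, and against NC1 the difference was -0.33 (SE 0.18, adjusted p = 0.162), or -0.55 and called after quantile normalization. The C2 against C1 difference was -0.81 on the first scan day and -0.69 on the second, called on neither day alone (limma adjusted p = 0.045 and 0.0913). With weights for array quality or a spread per stage, it was not called (adjusted p up to 0.0119).

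GATA6, the partner of GATA4 in the ovary, was read only by an EST probe, A_73_107835. It read 2.18, 4.26, 2.48, 1.39 and 2.48 at C2, 2.58 to 3.23 at C1 and 2.07 to 2.98 at NC1. Array 2 stood above and array 4 below all compact arrays. The difference from C1 was -0.37 (SE 0.35, 95% interval -1.10 to 0.36, adjusted p = 0.415).

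FOXL2, the forkhead factor that keeps granulosa cells from a testicular fate, was lower at C2 by both of its probes. The EST probe A_73_108473 was bright and read 5.02, 5.37, 5.32, 5.27 and 5.15 at C2. The lowest, median and highest values were 7.78, 8.24 and 8.63 at C1, and 7.04, 7.51 and 8.22 at NC1. Every C2 array was below all compact arrays, with the smallest spread of any valid probe of these factors at C2 (SD 0.14). C2 was lower than C1 by -2.99 (SE 0.20, adjusted p = 3.56e-09), or 7.94-fold lower, and than NC1 by -2.34 (SE 0.20, adjusted p = 7.05e-08), or 5.07-fold lower. The value was -2.93 against C1 on the first scan day and -3.03 on the second. The genes of the most similar profile were P4HTM, a transmembrane prolyl hydroxylase, ERAS, a Ras family member, and SLC2A4RG, a regulator of a glucose transporter gene, each with r = 0.98.

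The FOXL2 probe of the rule, A_73_100014, was well above background on all 12 compact arrays and on 3 of 5 C2 arrays, so it was not valid. It read -1.91, -0.65, -4.35, -5.47 and -2.18 at C2. C1 arrays lay at -0.04, 0.96 and 1.84 (lowest, median, highest) and NC1 arrays at -0.78, -0.03 and 1.00. All C2 arrays were below all C1 arrays, and array 2 alone reached into the NC1 range. In a fit over the 15256 probes present in any 2 stages, where 13.2% were called lower against C1, C2 was lower than C1 by -3.77 (SE 0.64, adjusted p = 0.000138) and than NC1 by -2.89 (SE 0.64, adjusted p = 0.00158). These values include the 2 arrays at background, and with normexp they were -1.79 and -1.15, both called, so the size depends on the background correction. The C2 arrays spread far more on this probe (SD 1.95) than on the EST probe, arrays 3 and 4 being lowest, and the 2 probes had r = 0.79 over the 17 arrays.

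**Figure D4:**
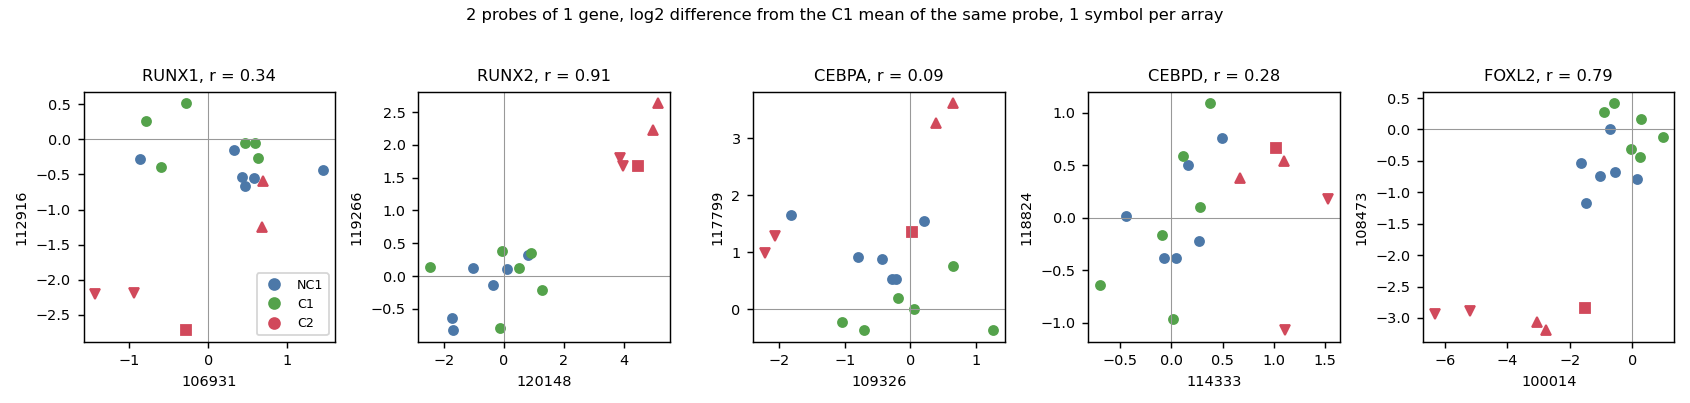
For the 5 genes with 2 sequenced probes, the log2 difference of each array from the C1 mean of the same probe, with 1 probe on each axis (symbols as in the plot of values by array). RUNX2 places the C2 arrays apart from all compact ones on both axes (r = 0.91). FOXL2 does so on the axis of its EST probe, while on the other axis C2 array 2 reaches into the NC1 range (r = 0.79). CEBPD does so on 1 axis only (r = 0.28). CEBPA sets C2 apart from C1 on 1 axis, and from NC1 on neither (r = 0.09).

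FOXO1, which represses growth and differentiation genes of granulosa cells until FSH and insulin-like signals inactivate it, was read only by an EST probe, A_73_109828. It read 3.26, 1.13, 0.28, 0.74 and 3.35 at C2. The lowest, median and highest values were 2.69, 3.34 and 3.61 at C1 and 2.88, 3.37 and 3.61 at NC1. C2 arrays 1 and 5 were within the compact range, and arrays 2, 3 and 4 were below it. C2 was lower than NC1 by -1.57 (SE 0.45, adjusted p = 0.00905, called) and than C1 by -1.54 (SE 0.45, adjusted p = 0.0104, not called). The first was lost under 20 of 30 other settings, among them leaving out any single NC1 or C1 array or C2 array 2, 3 or 4, with differences between -1.66 and -1.20 without these arrays. With array weights it was -0.95 (adjusted p = 0.0596). Exact permutation tests gave p = 0.0433 against NC1 and p = 0.0563 against C1. On the first scan day C2 minus NC1 was -0.84 and on the second -2.71. The most similar profiles were those of ACTG2, a smooth muscle actin, IGFLR1, a receptor of the TNF receptor family, and EPHX1, an epoxide hydrolase, each with r of 0.93 or 0.94.

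FOXO3, which holds primordial follicles dormant, did not differ beyond the spread between arrays. Its probe A_73_118806 read 5.52, 5.49, 5.39, 4.89 and 5.18 at C2, 4.96 to 6.01 at C1 and 5.09 to 5.46 at NC1. The C2 values overlapped with those of both compact stages. The difference from C1 was -0.17 (SE 0.19, 95% interval -0.57 to 0.22, adjusted p = 0.484), and that from NC1 was 0.06 (adjusted p = 0.838).

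The profiles of the remaining probes over the 17 arrays were matched in the same way. SPHK1, PID1 and COL5A2, a sphingosine kinase, an adaptor of insulin signalling and a fibrillar collagen, were most like the CEBPA probe of 45% G and C (r = 0.94, 0.93 and 0.93). PRSS23, NDRG4 and RNF122 were most like the called CEBPD probe (r = 0.93 each), and ARFGAP1, SLC9A8 and ILVBL the GC-rich one (r of 0.70 to 0.72). CEBPB was followed by LGMN, IL17RC and TSC22D4 (r of 0.89 to 0.90). The called RUNX1 probe was followed by TXK, a kinase of T cells, PCED1A and MINDY4 (r = 0.97, 0.95 and 0.95), and the other EST probe by CCDC24, ADRA2A and SCRN2 (r of 0.77 to 0.79). For the EST probe of RUNX2 the genes were ETV4, an ETS factor, TIMP1, an inhibitor of metalloproteinases, and ENO2, an enolase (r = 0.96, 0.95 and 0.95). For GATA4 they were MORN4, NCK2 and SOBP (r of 0.86 to 0.87), for GATA6 ABL2 and ACOT2 (r = 0.80 and 0.79) and for FOXO3 ZNF618, PWWP3B and STRN4 (r of 0.70 to 0.72).

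The split among C2 arrays was seen for some factors and not for others. The mean of arrays 1 and 5 exceeded that of arrays 3 and 4 by 2.80 for FOXO1, 2.66 and 2.29 for the 2 CEBPA probes, 2.39 for CEBPB and 2.86 for the FOXL2 probe of the rule. For 4.01%, 4.45%, 6.48%, 5.77% and 3.76% of the valid probes, respectively, the same gap was larger in size. For the EST probe of FOXL2 it was -0.21, for GATA4 -0.22, for FOXO3 0.21 and for the called CEBPD probe -0.44, and larger gaps were found for 80.7%, 79.9%, 80.9% and 61.2% of the valid probes. RUNX2 lay between, with 1.12 and 0.69. These differences are between arrays of 1 stage, which the labels do not divide, and are given with no test. The markers of cumulus and granulosa cells averaged 4.54 and 4.00 on arrays 1 and 5 and 5.98 and 6.18 on arrays 3 and 4, while array 2 had 5.64. The theca and stroma markers averaged 4.70 and 4.42 on arrays 1 and 5 against 3.70 and 3.65 on arrays 3 and 4.

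Between the compact stages of adult cows and calves, none of the 14 valid probes was called by limma, and 0.0577% of all valid probes were. An unadjusted p under 0.05 was reached by 3 of them. FOXL2 was higher in C1 by 0.65 on its EST probe (SE 0.19, limma adjusted p = 0.186, exact permutation p = 0.0173). GATA4 was higher by 0.45 (SE 0.17, adjusted p = 0.353), and CEBPA was lower by -1.01 on its probe of 45% G and C (SE 0.40, adjusted p = 0.384). On the last, 5 of 6 C1 arrays were below all NC1 arrays. For FOXL2 and GATA4, 3 of 6 C1 arrays were above all NC1 arrays. The exact permutation p was 0.0216 for GATA4 and 0.00649 for that CEBPA probe. It was also 0.0173 for the RUNX1 probe A_73_112916, higher in C1 by 0.43, and 0.0303 for GATA6, higher by 0.44. For these, 4 and 3 of 6 C1 arrays were above all NC1 arrays. A difference that is not called does not show that the stages were alike, and for the remaining 11 valid probes the estimates lay between -0.41 and 0.65.

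Genes that background knowledge links to each family were counted by their brightest valid probe. The lists were chosen with earlier results of these data known, so their counts and medians are descriptions and not tests. Of 10 genes linked to RUNX factors in the ovary or elsewhere, 8 were on the array and 6 valid, of which 3 rose and 1 fell at C2 against C1, where 15.3% of all valid probes rose and 12.8% fell. The median was 3.92 beside 0.02 for all valid probes. TNFAIP6 and PTGS2 of this list are expansion genes, and C2 complexes were kept for being expanded. TNFAIP6 rose by 6.63 (SE 0.73, adjusted p = 1.11e-06), PTGS2, the prostaglandin synthase of ovulation, by 4.75 (SE 0.47) and RGCC, a cell cycle regulator, by 3.91 (SE 0.41). PTGDS, the prostaglandin D synthase, fell by 2.65 (SE 0.25, adjusted p = 2.22e-07). Against NC1, 3 also rose and 1 fell (15.5% and 12.6% of all valid probes), with a median of 1.96 beside 0.11.

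Of 13 genes linked to C/EBP factors, 12 were on the array and 6 valid. Against C1, 2 rose, PTX3 by 4.98 (SE 0.79, adjusted p = 6.51e-05) and PTGS2 as above, and PPARG, a nuclear receptor of lipid storage, was lower (-2.20, SE 0.32, adjusted p = 2.55e-05), beside 15.3% and 12.8% of all valid probes. STAR, which brings cholesterol into mitochondria, differed by 2.17 but with an adjusted p of 0.212, and CYP11A1, which cuts the cholesterol side chain, by 0.16 (adjusted p = 0.865). The median was 1.16. Against NC1, 2 rose and 1 fell (15.5% and 12.6% of all valid probes), with a median of 0.42 beside 0.11.

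Of 11 genes linked to GATA factors, 8 were valid, and 5 fell and none rose, in each of the comparisons with C1 and with NC1, with a median of -1.91 against C1. Of all valid probes, 12.8% fell against C1 and 12.6% against NC1. HSD17B1, which makes estradiol from estrone, fell by 6.46 (SE 0.41, adjusted p = 1.34e-09), FSHR, the FSH receptor, by 3.55 (SE 0.23), CYP19A1, the aromatase, by 3.45 (SE 0.95, adjusted p = 0.00704), AMH, the anti-Müllerian hormone, by 2.14 (SE 0.28) and NR5A1, a steroidogenic nuclear receptor, by 1.67 (SE 0.28). The others were STAR, CYP11A1 and INHA, an inhibin subunit whose difference was -0.29 (adjusted p = 0.449).

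Of 11 genes linked to FOXL2, 8 were valid, and 5 fell and none rose against C1 (12.8% and 15.3% of all valid probes), with a median of -2.26. They were FSHR, CYP19A1 and AMH with the values above, ESR2, an estrogen receptor (-2.93, SE 0.26, adjusted p = 6.84e-08), and FST, the activin-binding follistatin (-1.49, SE 0.23, adjusted p = 5.7e-05). Against NC1, where 12.6% of all valid probes fell, CCND2, a cyclin of granulosa cell division, was called too (-2.50, adjusted p = 0.00871). The GATA and FOXL2 lists share CYP19A1, AMH, FSHR and STAR with each other, and several of their genes with the markers of cumulus and granulosa cells, so they are not separate evidence. The RUNX list shares PTGS2 and TNFAIP6 with the expansion genes, and both genes of the C/EBP list that rose, PTX3 and PTGS2, are expansion genes too, PTGS2 also standing in the RUNX list.

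Of 24 genes linked to FOXO factors, 20 were on the array and 13 valid, of which 5 rose and none fell against C1 (15.3% and 12.8% of all valid probes), with a median of 1.1. KLF2, an endothelial and T cell quiescence factor, rose by 3.80 (SE 0.61) and BCL6, a transcriptional repressor made in germinal centre cells, by 1.88 (SE 0.37). CITED2, a coregulator of CBP, rose by 1.76 (SE 0.25, adjusted p = 2.23e-05) and BCL2L11, a cell death factor, by 1.66 (SE 0.39, adjusted p = 0.00251). TXNIP, a thioredoxin inhibitor, rose by 1.46 (SE 0.40, adjusted p = 0.00712). Against NC1, CITED2, BCL6, TXNIP and SOD2, a mitochondrial superoxide dismutase, rose and CCND2 fell (15.5% and 12.6% of all valid probes). The median was 0.47 beside 0.11 for all valid probes.

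Of 26 genes that act upstream of FOXO factors, in the PI3K and AKT route and among the 14-3-3 proteins that hold FOXO in the cytoplasm, 18 were valid and their median was 0.13. Here 3 rose against C1, YWHAZ by 1.75 (SE 0.41) and YWHAB by 1.06 (SE 0.23), which are 14-3-3 proteins, and PIK3CA, a catalytic subunit of PI3K, by 0.91 (SE 0.21, adjusted p = 0.0017). SGK3, a kinase of FOXO, fell by 1.61 (SE 0.22, adjusted p = 1.02e-05). Counts of 3 and 1 in 18 are near or below the 15.3% and 12.8% of all valid probes. Against NC1, YWHAZ and YWHAB rose and SGK3 fell (15.5% and 12.6% of all valid probes). AKT1 (0.56, adjusted p = 0.0371) was not called. FOXO proteins are controlled mainly by phosphorylation, which an array does not measure.

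Of 17 relatives and partners of the factors, 10 were on the array and 5 valid. ZFPM1, a cofactor of GATA proteins, was the one that was called, higher by 1.31 than at C1 (SE 0.30, adjusted p = 0.00214) and by 1.49 than at NC1. The share of all valid probes called higher was 15.3% against C1 and 15.5% against NC1. RUNX3, the remaining runt-domain gene, differed from C1 by -0.62 (adjusted p = 0.355) and GATA3 by 2.28 (adjusted p = 0.0654). GATA1 was well above background on none of the 17 arrays, and FOXO4 on 1 C2 array only.

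**Figure D5:**
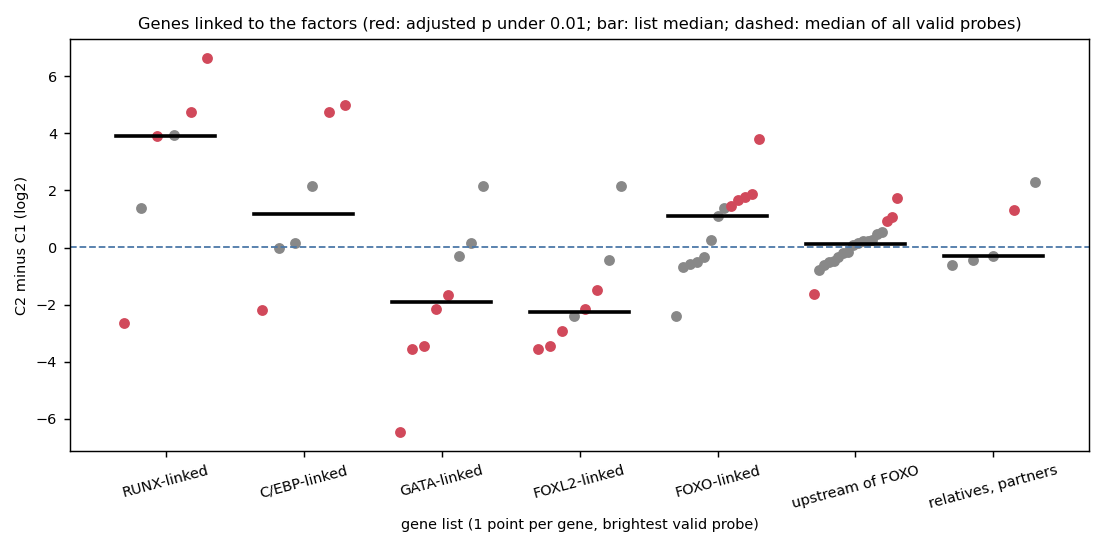
C2 minus C1 on the log2 scale (y axis) for each gene with a valid probe in 7 lists (x axis), with the median of each list as a bar and that of all valid probes, 0.02, as a dashed line. In the GATA and FOXL2 lists 5 of 8 genes lie below the line with an adjusted p under 0.01, while in the FOXO list 5 of 13 lie above it.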

How the data were processed

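The authors deposited the intensity of every spot on a linear scale, as Agilent Feature Extraction 10.5.1.1 gives it after background subtraction and detrending, and a table of log2 values scaled by the median of each array and filtered to 15256 probes. From the intensities, log2 of the processed signal was averaged over the uniform, non-outlier spots of a probe, and each array's median was subtracted. Presence of a spot required a signal well above background with neither the non-uniform nor the saturated mark, and presence of a probe required this for 50% of its spots or more. The methods' filter (80% of each stage) left 13865 probes. Stages were compared with limma 3.58.1 (statmod 1.5.0, R 4.3.3) using lmFit and eBayes, with the stage alone as factor, and single genes by a 2-sided exact permutation test (smallest p 0.00433 for 5 against 6 arrays). The fit was checked on simulated data. Python 3.11.15 with numpy 2.4.6, pandas 2.3.3, scipy 1.17.1 and matplotlib 3.10.9 did the rest.

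Groups and replicate numbers come from the sample titles. Same-numbered arrays of different stages deviated together no more than others (median r of -0.07 over 16 pairs), and the methods describe different animals, so numbers were not taken as pairs. The genes, lists and several tests were chosen with earlier results of these data known. Every probe of the 10 genes is given, and from each list the called genes with the largest changes, up to 4 a list, those a result turns on and those in a count of 5 or fewer. Of several valid probes of a listed gene the brightest is given. For each valid probe of the factors, the 3 most correlated named genes were found over 17 arrays, and some genes are not reported here. The files name no genome build. Alternatives were other scalings, background corrections and filters, the deposited table, slide, scan day or replicate blocks, array weights, a spread per stage, the methods' one-factor test, averaging of close C2 arrays and leaving out each array. Fits within a scan day and the count by base composition were added after the data were seen.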

Additional observations from a re-analysis of the deposited data

Results flagged for a closer look

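Of 48 sets of arrays, 1 per probe and stage, 2 held an array far from the others of its stage by Dixon's ratio, which chance alone gives for about 1 set in 20. On the RUNX2 probe A_73_120148, C1 array 4 read -1.56, while the other C1 arrays lay between 0.78 and 2.17. The expansion genes averaged -0.27 on that array, the lowest value of all arrays. On the GC-rich CEBPD probe A_73_118824, C2 array 3 read 1.66, while the other C2 arrays lay between 2.91 and 3.40.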

How the results depend on the processing

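Of 17 calls of a probe in a contrast, 12 were kept under every alternative run on both scan days, up to 30 for a valid probe. The lost ones were the RUNX1 probe of the rule against both compact stages, GATA4 against C1, the FOXL2 probe of the rule against NC1 (with close C2 arrays averaged) and FOXO1 against NC1. No called difference changed sign. Among differences that were not called, 14 changed sign under at least 1 alternative, 40 times in all. These counts take the CEBPA differences under the mean over its probes apart from the same differences of the GC-rich probe. None was called under the alternative that changed its sign (lowest limma adjusted p = 0.085). The call of FOXO1 against C1 was gained under 7 settings, among them quantile normalization and leaving out C2 array 1 (-1.91) or 5 (-1.94). Against NC1, the CEBPA probe of 45% G and C was called with array weights (1.61, adjusted p = 0.004) and GATA4 after quantile normalization (-0.55, adjusted p = 0.00896). Leaving out 1 array at a time, the count of valid probes that differed among stages lay between 6 and 7, against C1 between 7 and 8, against NC1 between 5 and 6, and between C1 and NC1 it stayed 0. The 2 probes that were not valid were both called lower against C1 (2 in each of these fits) and against NC1 (1 to 2). With the replicate block, 6 valid probes differed among stages, 7 against C1 and 6 against NC1, and no probe's call against C1 or NC1 changed with it. Of the probes that were not valid, 1 was called against C1 under normexp, in the fit of any 2 stages and in the deposited table, which hold only FOXL2 in the last 2 cases. Against NC1, 1 was called under the same settings and with the slide block, array weights, the methods' test and averaged C2 arrays. On the first scan day alone (3 arrays a stage), 3 valid probes differed among stages, 3 against C1 and 3 against NC1, and on the second 9, 8 and 7. With the mean over a gene's valid probes, 3 genes were called against C1 where the brightest probe gave 4, since CEBPD had 0.61 (adjusted p = 0.0604). With normexp, the EST probe of RUNX2 and the FOXL2 probe of the rule kept their calls at 1.12 and -1.79 against C1. Signal near background limits the RUNX1 probe of the rule and the FOXL2 probe of the rule at C2. The cause of a changed call or sign was not tested.

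The changed signs were as follows, as log2 differences. With the mean over the probes of CEBPA, C2 exceeded C1 by 0.73 and NC1 by 0.50. On the first scan day alone, C2 minus C1 was 0.047 for the RUNX1 probe A_73_106931, 0.55 for the GC-rich CEBPA probe, -0.065 for the GC-rich CEBPD probe and 0.020 for GATA6, C2 minus NC1 was 0.39 for that RUNX1 probe, 1.30 for the GC-rich CEBPA probe and 0.62 for CEBPB, and C1 minus NC1 was 0.075 for CEBPB. On the second day, C2 minus C1 was -0.12 for CEBPB, and C2 minus NC1 was -0.44 for the GC-rich CEBPD probe, -0.64 for GATA6 and -0.20 for FOXO3. Some differences with a changed sign on the first day kept their sign on the second, were larger and were called. These were C2 minus NC1 of -2.02 for that RUNX1 probe and -1.97 for the GC-rich CEBPA probe, and C2 minus C1 of -2.35 for the latter. All other values here are C2 minus NC1 unless C1 is named. Under normexp, CEBPA (GC-rich) had 0.15 and CEBPB 0.19. Array weights gave them 0.22 and 0.70, averaged C2 arrays gave CEBPA 0.023 and the replicate block gave CEBPB 0.034. With 75th percentile scaling, the GC-rich CEBPD probe had -0.057, GATA6 -0.076 and FOXO3 -0.090, and with quantile normalization FOXO3 had -0.16. The slide block gave the GC-rich CEBPD probe -0.0030 against C1 and -0.049 against NC1. Leaving out 1 array at a time, the range was -0.50 to 0.031 against C1 for RUNX1 A_73_106931, -0.41 to 0.30 for the GC-rich CEBPA probe, -0.13 to 0.74 against C1 and -0.53 to 0.33 against NC1 for CEBPB, -0.057 to 0.44 and -0.042 to 0.39 for the GC-rich CEBPD probe, and -0.35 to 0.36 for GATA6.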
